A study of Mus musculus with 16 samples.

Results

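Fos, Fosb, Jun, Junb, Egr1, Dusp1, Ier2, Zfp36, Atf3 and Nr4a1 are immediate-early genes, chosen as a named list of genes whose RNA is sensitive to cell isolation. They are 10 of the 49585 gene identifiers in the count tables of an RNA sequencing study of sorted neutrophils from mouse bones. All 10 were matched by symbol, and all 10 passed the filter on low counts in every comparison. The study has 16 libraries in 4 groups of 4, from C57BL/6 mice aged 8 to 12 weeks. Library titles end in m or f, male and female by the sex-linked genes given below, and each group holds both. Libraries labelled P2KO come from Vav:cre-PHD2f/f mice, in which Cre driven by Vav, a gene active throughout the blood lineages, removes floxed PHD2, an oxygen-dependent prolyl hydroxylase that marks HIF proteins for destruction. Libraries labelled P2H2KO come from Vav:cre-PHD2/HIF2ff/ff mice, in which floxed HIF2α is targeted along with PHD2. P2WT and P2H2WT are the controls of the respective lines, labelled wild type. The labels do not say whether the controls carried Vav:cre, and they do not say that each library is a separate mouse, so the p-values measure only the spread between these libraries.

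Immediate-early genes are transcribed within minutes of a stimulus from transcription factors that are already present in the cell, and their transcripts are short-lived. Serum response factor at CArG boxes and CREB or ATF proteins at cyclic AMP response elements relay MAP kinase and cyclic AMP signals to many of them. In leukocytes they respond to adhesion, cytokines and microbial products, and enzymatic or mechanical handling during cell isolation is known to induce them. Fos and Jun proteins dimerize to form AP-1, while Dusp1 and Zfp36 encode brakes on the response, a MAP kinase phosphatase and the mRNA-decay factor tristetraprolin (TTP).

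The 6 promoters below are shown because Fos, Junb, Zfp36, Jun and Fosb varied together across libraries, as described below, while Nr4a1 did not vary with them. Each is the window from 250 bases before to 50 bases after the RefSeq start on GRCm38.p6, written 5′ to 3′ on the gene's own strand. Capitals mark every match, on either strand, to TGACGTCA (the cyclic AMP response element), to its half-site TGACG, to the close variants TGACATCA of the element and TGACGCA of its start, to the AP-1 consensus word TGACTCA, to the EGR site GCGGGGGCG, to the CArG box and to the TATA word TATAAA. The half-site TGACG lies inside both TGACGTCA and TGACGCA, so those matches overlap.
Fos: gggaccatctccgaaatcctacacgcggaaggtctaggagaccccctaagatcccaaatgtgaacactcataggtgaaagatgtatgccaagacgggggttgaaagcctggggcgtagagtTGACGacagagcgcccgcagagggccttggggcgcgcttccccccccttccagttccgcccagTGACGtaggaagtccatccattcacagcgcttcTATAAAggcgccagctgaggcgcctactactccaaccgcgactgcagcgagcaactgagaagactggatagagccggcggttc
Junb: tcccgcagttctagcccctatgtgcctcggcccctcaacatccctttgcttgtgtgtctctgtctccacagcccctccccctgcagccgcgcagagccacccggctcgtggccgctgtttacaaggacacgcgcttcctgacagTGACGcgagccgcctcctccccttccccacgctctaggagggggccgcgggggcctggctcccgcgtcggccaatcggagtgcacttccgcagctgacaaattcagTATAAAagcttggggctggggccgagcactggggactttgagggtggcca
Zfp36: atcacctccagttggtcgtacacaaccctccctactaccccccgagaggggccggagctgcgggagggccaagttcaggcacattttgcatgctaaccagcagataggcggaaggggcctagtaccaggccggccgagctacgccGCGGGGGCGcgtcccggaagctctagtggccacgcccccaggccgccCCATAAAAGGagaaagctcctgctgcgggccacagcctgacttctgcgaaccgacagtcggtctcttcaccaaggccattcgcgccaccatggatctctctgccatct
Jun: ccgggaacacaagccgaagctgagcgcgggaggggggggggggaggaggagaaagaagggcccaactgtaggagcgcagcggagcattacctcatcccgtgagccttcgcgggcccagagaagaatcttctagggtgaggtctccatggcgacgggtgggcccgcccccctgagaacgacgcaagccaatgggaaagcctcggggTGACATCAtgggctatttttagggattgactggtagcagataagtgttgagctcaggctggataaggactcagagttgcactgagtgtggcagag
Fosb: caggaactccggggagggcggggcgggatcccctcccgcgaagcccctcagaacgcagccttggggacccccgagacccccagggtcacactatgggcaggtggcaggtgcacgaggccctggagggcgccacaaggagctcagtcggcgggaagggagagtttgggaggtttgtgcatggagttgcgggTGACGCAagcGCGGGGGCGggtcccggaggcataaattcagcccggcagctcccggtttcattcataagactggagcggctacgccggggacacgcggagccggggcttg
Nr4a1: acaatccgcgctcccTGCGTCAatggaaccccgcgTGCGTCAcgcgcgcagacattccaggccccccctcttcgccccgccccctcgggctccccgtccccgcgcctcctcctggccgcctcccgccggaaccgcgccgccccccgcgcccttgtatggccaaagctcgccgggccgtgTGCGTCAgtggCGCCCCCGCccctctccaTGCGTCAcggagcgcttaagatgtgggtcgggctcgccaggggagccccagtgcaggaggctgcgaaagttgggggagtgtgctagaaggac
The windows are chr12:85473640-85473939 on the plus strand for Fos, chr8:84978699-84978998 on the minus strand for Junb, chr7:28379179-28379478 on the minus strand for Zfp36, chr4:95052173-95052472 on the minus strand for Jun, chr7:19309996-19310295 on the minus strand for Fosb and chr15:101266596-101266895 on the plus strand for Nr4a1.

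The RefSeq table held 8 of the 10 promoters, those of all the genes but Egr1 and Ier2, and 32851 promoters in all. The half-site TGACG was in 6 of the 8 (Atf3, Fosb, Junb, Fos, Nr4a1 and Dusp1), against 20.8% of all promoters of that length. Nr4a1 held TGACGCA 4 times and Fosb once, a word found in 2.12% of all promoters. The full TGACGTCA was in Dusp1 alone (1.79% of all promoters), and TGACATCA in Jun alone (3.62%). GCGGGGGCG was in Fosb, Zfp36 and Nr4a1 (2.91%), the CArG box in Zfp36 alone (1.63%), and TATAAA in Fos and Junb (13.6%). TGACTCA, found in 5.202% of all promoters, was in none of the 8 windows. Within these windows, the 5 genes that varied together thus shared no one of these 8 words. Bases outside the windows were not searched, and the matches are a description of the letters only.

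Library totals ran from 23450746 to 28601284 counts. Values below are CPM, counts scaled to a common library total with TMM (trimmed mean of M-values) factors. The targeted genes did not separate the groups at the level of whole genes. In P2KO libraries the PHD2 gene Egln1 stood at 49.5 ± 6.40 CPM (SD, n = 4), beside 48.7 ± 2.21 CPM for P2WT. P2H2KO libraries held 53.2 ± 4.39 CPM of it, beside 52.2 ± 2.97 CPM for P2H2WT. The HIF2α gene Epas1 reached 5.65 ± 2.17 CPM in P2H2KO, beside 3.56 ± 1.02 CPM for P2H2WT. Counts over a whole gene do not show the floxed exons, so they check neither the labels nor the deletion. The summed level of 16 neutrophil markers was 35059 to 89590 CPM, beside 26883 to 54710 CPM for 11 erythroid markers and 1924 to 2877 CPM for 16 monocyte and macrophage markers. The erythroid sum exceeded the neutrophil sum in P2KO library 5 (48501 against 36925 CPM) and P2KO library 9 (44100 against 35059 CPM). It did so too in P2WT library 4 (46490 against 45460 CPM) and P2H2WT library 14 (54710 against 49926 CPM). None of the markers in the 9 cell-type lists was at 0 in every library. In such bulk samples, fewer cells of a type and less RNA per cell cannot be told apart.

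Per kilobase of exon, Ier2 (63.6 CPM per kilobase, mean of 16 libraries) and Zfp36 (60.0) were highest. The length counts every base that is exon in any annotated transcript. It can exceed the length of the mRNA present, so levels of different genes compare only roughly. Fos (41.2), Junb (38.6), Dusp1 (20.4) and Jun (11.2) followed, and Nr4a1 (4.73), Atf3 (2.42), Egr1 (1.44) and Fosb (0.742) were lowest. Across libraries the ranges of Ier2 (42.9 to 77.6 CPM per kilobase) and Zfp36 (39.2 to 76.6) overlapped widely, and that of Fos (13.5 to 65.02) contained that of Junb (24.1 to 47.9). Fosb, the lowest, had 30 to 293 counts in a library, and Zfp36 had 3543 to 6668. On this rough scale, the order placed transcripts of the feedback factor TTP and of Ier2, a nuclear regulator, above those of the AP-1 subunits.

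In GRCm38 (GENCODE M21) the genes lie on several chromosomes, with Junb and Ier2 near each other on chromosome 8 and Egr1 on chromosome 18. Fos is at chr12:85473890-85477273, Fosb at chr7:19302696-19310051, Jun at chr4:95049034-95052222, Junb at chr8:84974484-84978718, Ier2 at chr8:84661331-84662852, Dusp1 at chr17:26505590-26562128, Zfp36 at chr7:28376784-28380253, Atf3 at chr1:191170296-191218039 and Nr4a1 at chr15:101254269-101274795. Jun shares 7.28% of its exon bases with the antisense gene Junos (2.65 to 5.19 CPM), Junb 7.52% with Prdx2 (740 to 1408 CPM), Zfp36 3.60% with Gm44710 and Dusp1 0.332% with Ergic1. Each of these partners is on the opposite strand. The use of strand in counting is not given in the sources used here, so reads from the shared bases cannot be told apart.

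Loss of PHD2 alone was compared with its wild-type controls first, which asks whether an active HIF pathway goes with a different immediate-early level in these cells. No member passed the test in P2KO against P2WT. Of the 10, 8 were estimated lower and 2 higher, with a median log2 fold change of -0.064 beside 0.020 for all 13734 genes tested (42.2% of those were estimated lower). The count called was 0 of 10 in edgeR's quasi-likelihood test with Benjamini-Hochberg adjustment, 0 in DESeq2 and 0 at an unadjusted p under 0.05. Of all genes, 0.0437% were called by edgeR and 0.116% by DESeq2, and 3.49% had an unadjusted p under 0.05. All 10 members overlapped between the groups, whereas 2.25% of genes did not overlap.

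Fos, the AP-1 subunit with the largest estimate, was at 88.6, 118, 68.1 and 31.7 CPM in P2KO libraries 1, 5, 6 and 9. In P2WT libraries 3, 4, 7 and 10 it was at 128, 121, 86.6 and 90.9 CPM. P2KO library 9 lay far below the rest, and library 5 lay inside the P2WT range. The group means were 76.6 ± 36.3 and 107 ± 20.9 CPM (SD, n = 4), and the log2 fold change was -0.47 ± 0.33 (SE, adjusted p = 1.0 by edgeR, 95% interval -1.22 to 0.29). Leaving out single libraries moved it between -0.75 and -0.21. With the suffix of the library titles (m or f) as a covariate Fos was at -0.78 ± 0.24 and Zfp36 at -0.24 ± 0.10 (SE), and 2 members had an unadjusted p under 0.05 (3.33% of all genes), with 0 called by edgeR. Jun, the usual partner of Fos, was at 40.5, 66.8, 20.7 and 20.96 CPM in those P2KO libraries and at 59.3, 48.4, 23.0 and 21.4 CPM in those P2WT libraries. High and low libraries occurred in both groups, and the log2 fold change of Jun was -0.017 ± 0.45 (SE), with a wide interval of -1.03 to 0.9986. Fosb, a slower-decaying relative of Fos, was at 3.64, 6.70, 1.19 and 1.88 CPM in P2KO and at 6.4996, 6.07, 2.73 and 1.98 CPM in P2WT, so the P2KO range contained the P2WT range, as for Jun.

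The remaining members had narrower intervals than Fos, Jun and Fosb. Ier2 had an interval of -0.39 to 0.26 and Nr4a1, an orphan nuclear receptor, one of -0.36 to 0.33. Zfp36 was at 199, 220, 198 and 136 CPM in P2KO and at 246, 212, 170 and 197 CPM in P2WT, a log2 fold change of -0.12 with an interval of -0.48 to 0.24. Dusp1 (-0.55 to 0.43), Junb (-0.48 to 0.32), Atf3 (-0.31 to 0.61) and Egr1 (-0.57 to 0.61) had intervals on both sides of 0. P2KO library 9 was the lowest of all 16 libraries for Fos, Junb, Ier2 and Zfp36. It also had the lowest summed neutrophil markers (35059 CPM, beside 44100 CPM of erythroid markers). Its summed endothelial (250 CPM), megakaryocyte and platelet (240 CPM) and eosinophil, basophil and mast cell (6119 CPM) markers were the highest. The part of these cells in the low values was not tested. Without that library, the estimates of 6 members changed sign (Jun 0.18, Junb 0.064, Egr1 -0.079, Dusp1 0.021, Ier2 0.053 and Zfp36 0.0046). All 16 monocyte and macrophage markers were also estimated lower in P2KO, 5 at an unadjusted p under 0.05 and none called. Their sum did not overlap between the groups (1995 to 2174 CPM in P2KO libraries, 2340 to 2619 CPM in the controls). Of 12 T and NK cell markers, 11 were estimated lower and 4 had an unadjusted p under 0.05. None of these was called (smallest adjusted p = 0.21 by edgeR, sums of 88.1 to 128 against 124 to 138 CPM). All 6 megakaryocyte and platelet markers were estimated higher, none called (sums of 69.3 to 240 against 58.2 to 127 CPM). The part of these cells in the members' estimates was not tested.

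**Figure D1:**
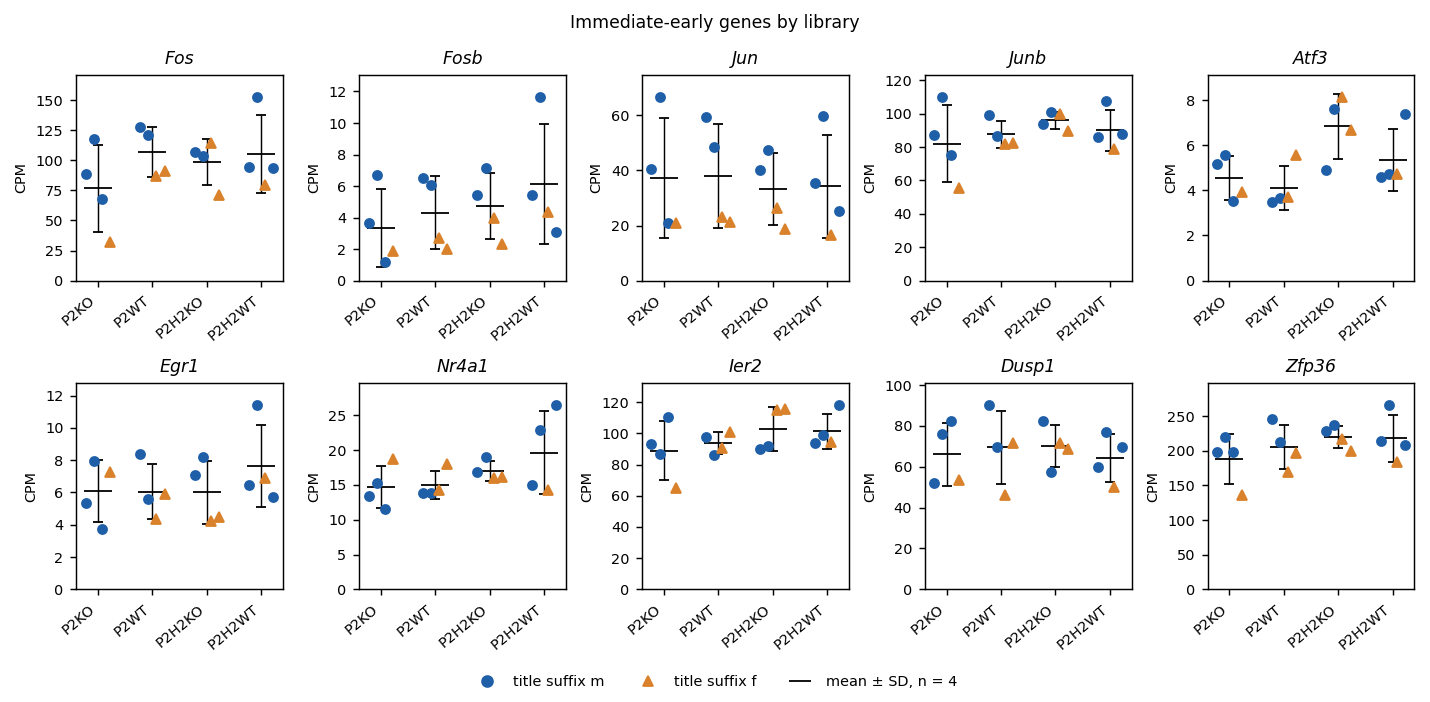
CPM (linear axis from 0) of each member in every library, by group, with circles for library titles ending in m, triangles for those ending in f, and bars for the mean ± SD of 4 libraries. The 4 groups overlap for each gene, and Jun in f libraries (16.7 to 26.4 CPM) lies at the bottom of every group but P2KO, where library 6 (20.7 CPM) is lower.

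In the line in which PHD2 and HIF2α were both targeted, no member passed the test either. The median log2 fold change of the 10 in P2H2KO against P2H2WT was -0.013 beside 0.0011 for all 13435 genes tested, with 5 above and 5 below 0 (50.5% of all genes were above). All 16 neutrophil markers were estimated higher in P2H2KO, none called (sums of 48206 to 89590 against 49926 to 75544 CPM). Of 16 monocyte and macrophage markers 9 were lower at an unadjusted p under 0.05 (list median -0.36, sums of 1924 to 2877 against 2311 to 2808 CPM), and 9 of 10 B cell markers were estimated lower (median -0.36, sums of 708 to 1304 against 862 to 1359 CPM), with none called. The part of these cells in the members' levels was not tested. By edgeR 0 of 10 were called (0.0744% of all genes), by DESeq2 0 (0.27%), and 0 had an unadjusted p under 0.05 (2.63% of all genes). None of the 10 was without overlap between the groups (1.71% of all genes).

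Atf3, a stress-inducible member of the ATF family, had the largest positive estimate. It was at 4.89, 7.62, 8.15 and 6.68 CPM in P2H2KO libraries 11, 12, 15 and 17 and at 4.58, 4.70, 4.72 and 7.39 CPM in P2H2WT libraries 13, 14, 16 and 18. Each of the P2H2KO libraries lay above 3 of the P2H2WT libraries, but P2H2WT library 18 lay among the P2H2KO libraries. The log2 fold change was 0.36 ± 0.20 (SE, adjusted p = 1.0 by edgeR, 95% interval -0.10 to 0.82). Egr1, a zinc-finger factor, had an estimate of -0.34 (-0.97 to 0.28). With the number in the library titles as a covariate, Egr1 was at -0.58 ± 0.22, Fosb at -0.78 ± 0.31 and Atf3 at 0.49 ± 0.18 (SE), and 3 members had an unadjusted p under 0.05 (11.1% of all genes), with 0 called by edgeR. Egr1 was at 7.10, 8.18, 4.24 and 4.51 CPM in P2H2KO and at 6.48, 11.4, 6.93 and 5.74 CPM in P2H2WT, where library 14 was highest and the other 3 lay within the P2H2KO range.

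Fos and Jun, the classical AP-1 pair, had estimates near 0 in this line. Fos was at 107, 103, 114 and 70.9 CPM in P2H2KO and at 94.6, 153, 79.8 and 93.9 CPM in P2H2WT, a log2 fold change of -0.090 (-0.57 to 0.39). Jun was at 40.3, 47.6, 26.4 and 18.7 CPM in P2H2KO and at 35.4, 59.9, 16.7 and 25.2 CPM in P2H2WT. Its log2 fold change was -0.043 with an interval of -0.94 to 0.86, which spans most of a doubling or halving. Junb (-0.13 to 0.31), Ier2 (-0.23 to 0.28), Zfp36 (-0.24 to 0.28), Dusp1 (-0.20 to 0.46) and Nr4a1 (-0.63 to 0.23) had narrower intervals that all included 0. Fosb, with 30 to 293 counts in any library, had the widest (-1.38 to 0.62), and its estimate of -0.38 turned to 0.13 without P2H2WT library 14.

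Whether the change in P2KO depended on HIF2α was asked by the difference of both changes in 1 fit of 16 libraries. For the members it ran from -0.39 (Fos, 95% interval -1.30 to 0.53) to 0.36 (Egr1, -0.51 to 1.22). By edgeR 0 of 10 were called (0% of 14080 genes), DESeq2 called 0 (0% of all genes), and 0 had an unadjusted p under 0.05 (1.51% of all genes). The intervals of Jun (-1.38 to 1.42) and Fosb (-1.61 to 1.66) left differences of more than 2-fold in either direction within reach, while those of Ier2 (-0.51 to 0.31) and Zfp36 (-0.59 to 0.29) did not. The groups were not balanced for the title suffix. The f libraries were P2KO 9, P2WT 7 and 10, P2H2KO 15 and 17, and P2H2WT 16. With the suffix as a covariate, Fos was at -0.76 ± 0.37 and Jun at -0.48 ± 0.43 (SE). Fosb was at -0.35 ± 0.63 and Zfp36 at -0.33 ± 0.15, while Egr1 (0.26 ± 0.40) and Nr4a1 (0.19 ± 0.28) were the members above 0. In that fit 1 member had an unadjusted p under 0.05 (1.21% of all genes), with 0 called by edgeR.

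**Figure D2:**
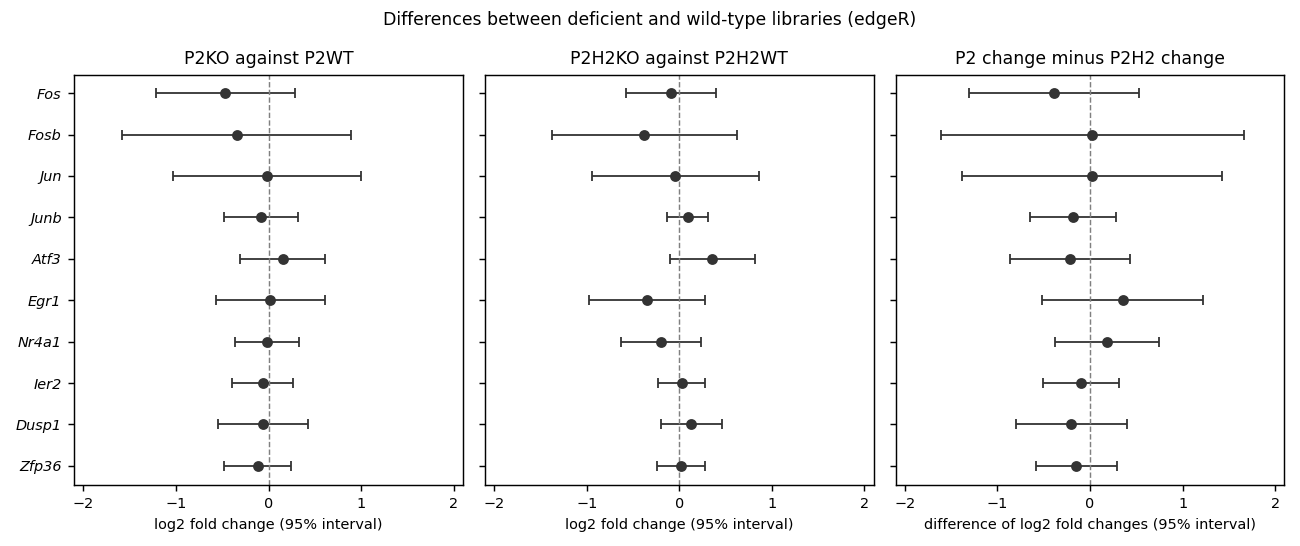
Log2 fold change of each member (points) with its 95% interval (bars, edgeR) in P2KO against P2WT, in P2H2KO against P2H2WT, and the difference between those changes. Each of the 30 intervals includes 0, and those of Fosb and Jun are the widest in all 3 panels.

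The 2 lines were also compared with each other, averaging deficient and wild-type libraries. The line and the deposited table cannot be told apart in this contrast. Of the 10 members, 8 were estimated lower in the P2 line (50.3% of all genes were), and the median log2 difference was -0.16. By edgeR 0 were called (5.51% of all genes were), and 2 had an unadjusted p under 0.05, both lower (8.93% of all genes). These were Atf3 (-0.48 ± 0.15, SE, adjusted p = 0.0776 by edgeR) and Nr4a1 (-0.30 ± 0.13, adjusted p = 0.201 by edgeR). Atf3 was at 3.49 to 5.59 CPM in the 8 P2 libraries and at 4.58 to 8.15 CPM in the 8 P2H2 libraries, so the ranges overlapped. DESeq2 called 1 member, Atf3 (adjusted p = 0.0303), where 8.32% of all genes it tested were called. The edgeR test called Atf3 without P2WT library 10 (adjusted p = 0.0411, 4.21% of all genes called) or without P2H2KO library 11 (0.0436, 5.87%). The direction of Atf3 was the same in wild-type libraries alone (-0.38) and in deficient libraries alone (-0.62), with neither called. In the same contrast 9 of 10 bone stroma markers and 7 of 10 endothelial markers were called higher in the P2 line (4.3% of all genes were). All 16 neutrophil markers were estimated lower there (median -0.26, 2 at an unadjusted p under 0.05, none called). All 10 eosinophil, basophil and mast cell markers were lower too (median -0.26, 1 called). Of 16 monocyte and macrophage markers 8 were above and 8 below 0, with 2 called higher and 1 called lower in the P2 line. All 6 megakaryocyte and platelet markers were estimated higher (median 0.61, none called). The part of these cells in the members' levels was not tested.

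The members differed in how much they varied between libraries of 1 group. The within-group SD of log2 CPM was 0.86 for Fosb, larger than for 98.5% of genes, 0.74 for Jun (97.5%), 0.50 for Fos (90.5%) and 0.44 for Egr1 (86.9%). Ier2 (0.21), Zfp36 (0.23) and Junb (0.24) lay near the median gene (0.20), but above the median of 0.15 for genes with a mean of at least 5 CPM. The highest library exceeded the lowest 9.85-fold for Fosb, 4.82-fold for Fos and 3.996-fold for Jun, and 1.81-fold for Ier2. P2H2WT library 14 was highest of all 16 for Fos, Fosb, Egr1 and Zfp36, and P2KO library 6 was lowest for Fosb, Egr1 and Nr4a1.

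Fos, Fosb, Jun, Junb and Zfp36 varied together. Each member's log2 CPM was taken as its deviation from the group mean, and all 45 pairs were correlated over the 16 libraries, with 100000 permutations within groups. The adjusted p of Pearson's r was under 0.05 in 12 pairs, and those of both r and Spearman's rho in 10. The share among pairs of all genes was not computed. Deviations from group means keep any difference between m and f libraries, which the permutations within groups do not take into account. Fos, Fosb, Jun, Junb and Zfp36 were each estimated higher in m libraries, as given below. The part of the suffix in these correlations was not tested. Fos and Junb were most alike (r = 0.956, rho = 0.953, permutation p = 3e-05 and 6e-05, adjusted p = 0.0009 and 0.00135), and r was 0.900 without the 2 libraries farthest from the median of Fos. Fosb and Jun followed (r = 0.938, rho = 0.915, 0.905 without the 2 farthest, adjusted permutation p = 0.0009 and 0.0015), then Fos and Zfp36 (r = 0.915, rho = 0.891, 0.860 without the 2 farthest, adjusted permutation p = 0.0009 and 0.00243).

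Of the 10 pairs among Fos, Fosb, Jun, Junb and Zfp36, 9 passed on both measures. Fosb and Zfp36 did not (r = 0.668, adjusted permutation p = 0.0712, with rho = 0.741, adjusted p = 0.0262). The tenth pair to pass was Fosb and Egr1 (r = 0.750, rho = 0.691, adjusted permutation p = 0.0298 and 0.0457). Jun with Egr1 (r = 0.698) and Dusp1 with Zfp36 (r = 0.681) passed on r alone. Ier2, Atf3 and Nr4a1 were in no pair that passed, although Atf3 with Nr4a1 had r = 0.497 and Ier2 with Egr1 had r = -0.576. The samples share a depth scaling, so values of 2 genes in 1 library are not fully independent.

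**Figure D3:**
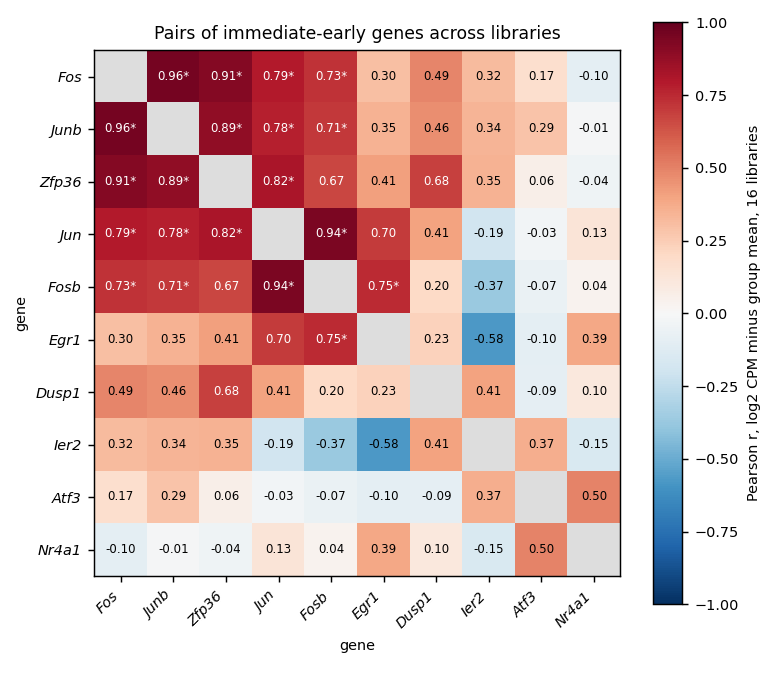
Pearson's r between members over 16 libraries, computed on log2 CPM minus the group mean, with an asterisk where the adjusted p of both r and rho is under 0.05. Fos, Junb, Zfp36, Jun and Fosb form a block with r from 0.67 to 0.96, and Ier2, Atf3 and Nr4a1 carry no asterisk.

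The members were also set against the cell-type marker sums, as deviations from group means, and none of these relations passed adjustment. Of 90 relations between the 10 members and 9 marker sums, 16 had an unadjusted permutation p of r under 0.05 and 0 an adjusted p under 0.05. The strongest was between Ier2 and the neutrophil markers (r = 0.864, rho = 0.835, 0.800 without the 2 farthest, permutation p = 0.00093 and 0.0021, adjusted p = 0.0833 and 0.0945). Fosb had a negative r with those markers (r = -0.718, rho = -0.638, -0.578 without the 2 farthest, permutation p = 0.0086 and 0.0259, adjusted p = 0.129 and 0.195), as did Egr1 (r = -0.730, rho = -0.688, -0.616 without the 2 farthest, permutation p = 0.00724 and 0.0134, adjusted p = 0.129 and 0.173). Egr1 and B cell markers had a positive r (r = 0.802, rho = 0.803, 0.786 without the 2 farthest, permutation p = 0.00185 and 0.0015, adjusted p = 0.0833 and 0.0945). Egr1 also had a positive r with erythroid markers (r = 0.763, rho = 0.744, 0.663 without the 2 farthest, permutation p = 0.00285 and 0.00473, adjusted p = 0.0855 and 0.106). With erythroid markers Fosb had r = 0.680 and Jun r = 0.625, and with T and NK cell markers r = 0.695 and 0.640 (adjusted permutation p of r from 0.129 to 0.166). The part of these cells in the members' spread was not tested.

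Over all 9808 other genes with a mean of at least 5 CPM, r with the mean of the 10 members lay between -0.60 (5th percentile) and 0.65 (95th percentile). The 10 most like it were Ccnl2 (r = 0.906), a cyclin of splicing speckles, Srpk1 (0.896), a kinase of splicing factors, and Uimc1 (0.893), then Caml, Gm42047, Secisbp2, Dnaja2, Kat8, Edc4 and Zc3h15 (0.833 to 0.866). The least like it were Uhmk1 (-0.918), Btnl9 (-0.889), Zdhhc4 (-0.859), Slc25a16 (-0.849) and Adcy9 (-0.845). These are ranks among many genes over 16 libraries and carry no test.

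Library titles also carry a suffix, m or f, and a number. Ddx3y, on the Y chromosome, had at least 1307 counts in each of the 10 m libraries and at most 1 in each of the 6 f libraries, and Xist had at most 3 and at least 2598. These counts show that the m libraries came from male and the f libraries from female mice. The suffix and the number were examined after the values of Jun had been seen. Jun was at 20.7 to 66.8 CPM (median 44.1) in m libraries and at 16.7 to 26.4 CPM (median 21.2) in f libraries, and 8 of the 10 m libraries exceeded every f library. The exceptions were P2KO library 6 (20.7 CPM) and P2H2WT library 18 (25.2 CPM). The difference had the same direction within each line, 47.2 ± 17.9 CPM in m (SD, n = 5) against 21.8 ± 1.05 in f (n = 3) in the P2 line and 41.7 ± 13.05 against 20.6 ± 5.11 in the P2H2 line.

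In a fit of all 16 libraries with the 4 groups, the m against f difference of Jun was 1.13 ± 0.23 on the log2 scale (SE, adjusted p = 0.0608 by edgeR). Fosb (1.04 ± 0.34, adjusted p = 0.163), Fos (0.59 ± 0.19, adjusted p = 0.164), Zfp36 (0.33 ± 0.076, adjusted p = 0.0827), Dusp1 (0.30 ± 0.14) and Junb (0.26 ± 0.10) were also estimated higher in m by edgeR, and Egr1 (0.30 ± 0.21) had a larger p. In all, 8 members were above and 2 below 0. Zfp36 was at 198 to 246 CPM in m and 136 to 197 CPM in f in the P2 line, ranges that just missed each other (4.28% of all genes did not overlap there), and at 209 to 266 against 184 to 217 CPM in the P2H2 line, where they overlapped. By edgeR 0 of 10 members were called (0.163% of all genes were), and 6 had an unadjusted p under 0.05 and were higher in m (9% of all genes). DESeq2 called 4, which were Fos (adjusted p = 0.0485), Fosb (0.0468), Jun (0.000255) and Zfp36 (0.00426), beside 3.02% of all genes it tested. Leaving out P2KO library 6 gave 3 calls by edgeR (Jun 0.00913, Zfp36 0.0388 and Fosb 0.0446), with 3.3% of all genes called. Leaving out P2KO library 9 or P2H2WT library 18 gave 1, Jun (0.0381 and 0.0449), with 7.49% and 0.358% of all genes called. Ier2 (0.025), Nr4a1 (-0.012) and Atf3 (-0.077) had estimates near 0. That of Nr4a1 averaged opposite directions, 13.6 ± 1.35 CPM in m against 16.9 ± 2.38 in f in the P2 line and 20.01 ± 4.63 against 15.5 ± 1.02 in the P2H2 line, a difference between lines that was not tested.

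The suffix and the number are tied, because the f libraries are numbers 7, 9 and 10 of the P2 line and 15, 16 and 17 of the P2H2 line. Per unit of the number, centred within each line, Fosb (-0.23 ± 0.061), Jun (-0.20 ± 0.049), Fos (-0.10 ± 0.037) and Zfp36 (-0.048 ± 0.017) were lower at an unadjusted p under 0.05. That is 4 of 10 members, against 9.57% of all genes. Related genes outside the members did not all fall with the number. Of 12 NF-kappaB feedback genes 11 were above and 1 below 0 (median 0.041), and of 23 further immediate-early genes 16 and 7 (median 0.025). Of 15 heat-shock genes 4 were above and 11 below 0 (median -0.017). The median of all genes was 0.0019, and none in these 3 lists was called by edgeR. By edgeR 0 members were called (0.142% of all genes were), with 2 called by DESeq2 (Fosb and Jun, adjusted p = 0.00802 and 0.00413), beside 2.3% of all genes it tested. The edgeR test without P2KO library 9 called the same 2 (0.0413 and 0.0395), but also 15.9% of all genes. With both terms in the fit no member was called for either, and Jun had a suffix estimate of 0.81 ± 0.36 (adjusted p = 0.487 by edgeR) and a number estimate of -0.078 ± 0.068 (adjusted p = 0.637). What the number stands for is not given in the labels. Beside these differences, all 11 erythroid markers were estimated higher in m (48.6% of all genes were, 3 markers at an unadjusted p under 0.05) and all 16 monocyte and macrophage markers lower (51.4% of all genes were, 3 markers at an unadjusted p under 0.05), with none called. Of 10 endothelial markers, 9 were estimated lower in m and 5 had an unadjusted p under 0.05 (list median -0.49, smallest adjusted p = 0.0528 by edgeR, sums of 97.9 to 154 CPM in m and 107 to 250 CPM in f). The sums were 27142 to 54710 CPM in m and 26883 to 44100 CPM in f for the erythroid markers, and 1924 to 2679 CPM and 2110 to 2877 CPM for the monocyte and macrophage markers, and their part was not tested. The sex marked by the suffix, the number and cell makeup cannot be told apart here.

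**Figure D4:**
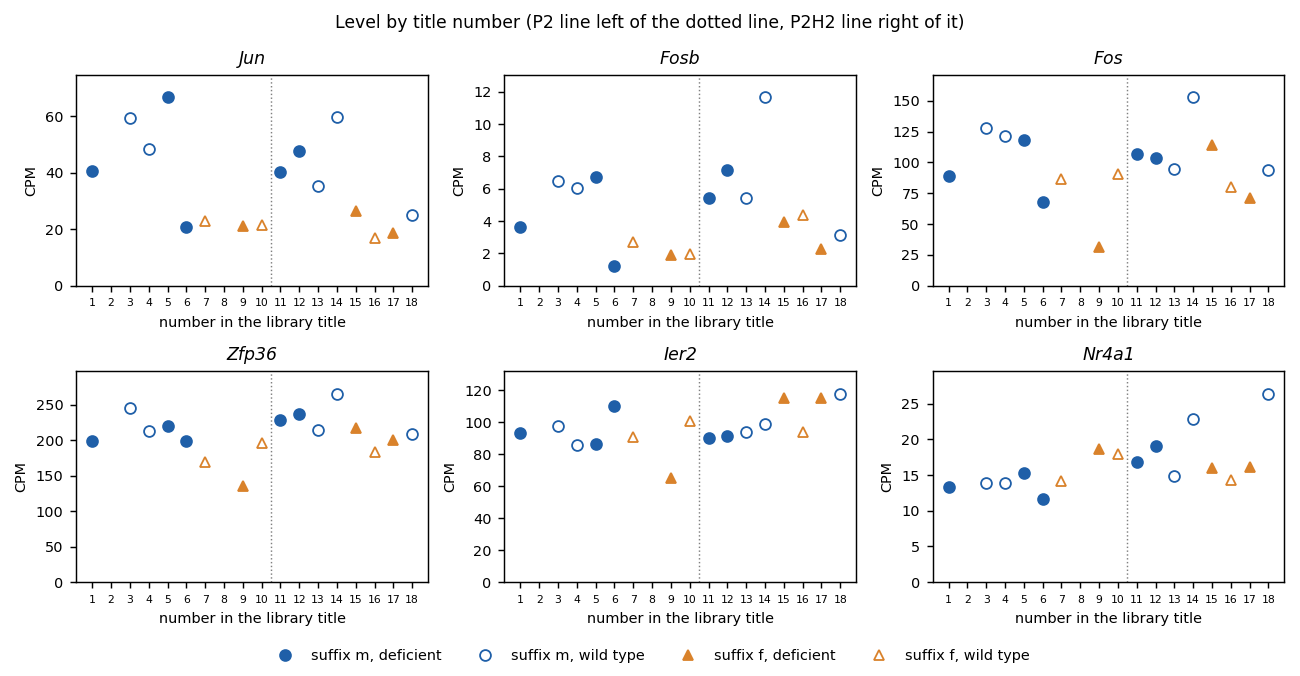
CPM (linear axis from 0) of 6 members against the number in the library title, with circles for suffix m, triangles for suffix f, filled symbols for deficient and open symbols for wild-type libraries. Jun, Fosb, Fos and Zfp36 are lower in most f libraries of both lines. The m and f ranges of all 6 genes overlap within each line, save for Zfp36 in the P2 line. The m mean of Ier2 lies above the f mean in the P2 line and below it in the P2H2 line, and that of Nr4a1 the reverse.

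The wider pathway was read from 9 lists. In both genotype comparisons, and in their difference, 0 genes of any list were called by edgeR. Of 10 tested AP-1 relatives of the members in the P2 line, 6 were above and 4 below 0, with 1 at an unadjusted p under 0.05 (Batf3, lower). Atf4, the effector of the integrated stress response, had a log2 fold change of 0.17 ± 0.11 and Mafk, a small Maf protein, one of 0.14 ± 0.10. Among 23 further immediate-early genes, 14 were below 0 in P2KO and 2 had an unadjusted p under 0.05, both lower. One was the clock gene Per1 at -0.62 ± 0.27 (adjusted p = 1.0 by edgeR). The other was Nr4a3, chosen after its values were seen, with a mean of 0.446 ± 0.036 CPM in the deficient and 0.806 ± 0.232 CPM in the control libraries. In P2H2KO, 14 of 22 such genes were above 0, with none at an unadjusted p under 0.05, and Ier3 (0.25 ± 0.13) and Gadd45b (0.21 ± 0.13) had the smallest p-values.

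No gene of the feedback lists was called. Of the MAP kinase phosphatases other than Dusp1, 6 of 8 were below 0 in P2KO and 5 of 7 in P2H2KO, where Dusp5, which acts on nuclear ERK, had a log2 fold change of -0.34 ± 0.15 (unadjusted p = 0.0465 and adjusted p = 1.0 by edgeR). Partners of TTP in mRNA decay had median changes of 0.068 and 0.0091. Of the 12 NF-kappaB feedback genes, 8 were below 0 in P2KO and 4 in P2H2KO. The 8 tested TTP targets were divided 4 and 4 in both lines, and Il1b, which encodes interleukin 1 beta, had estimates of 0.48 ± 0.48 and 0.57 ± 0.36. The 25 upstream kinases and SRF cofactors stayed within -0.081 and 0.080 in P2KO and within -0.071 and 0.16 in P2H2KO.

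Heat-shock genes, which handling can also induce, were estimated in opposite directions in the lines. In P2KO 13 of 15 tested were above 0 (57.8% of all genes were), with a median of 0.082, and in P2H2KO 13 of 15 were below 0 (49.5% of all genes were), with a median of -0.092. None had an unadjusted p under 0.05 in either line, and for the difference 14 of 15 were above 0 (50.4% of all genes were) with none at an unadjusted p under 0.05. Hsph1, a chaperone of the HSP110 family, had a difference of 0.46 ± 0.33. Erythroid markers had the same pattern of signs, 11 of 11 above 0 in P2KO and 11 of 11 below 0 in P2H2KO, also without a call. Both lists were also estimated higher in m than in f libraries. There 13 of 15 heat-shock genes (median 0.14) and 11 of 11 erythroid markers were above 0 (48.6% of all genes were). The groups were not balanced for the suffix, and its part in these signs was not tested.

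Outside the genotype comparisons, 2 pathway genes were called by edgeR. Batf3, an AP-1 factor, was lower in the P2 line (-0.57 ± 0.13, adjusted p = 0.0175 by edgeR), with 0.853 ± 0.138 CPM in P2KO, 1.18 ± 0.135 in P2WT, 1.69 ± 0.258 in P2H2KO and 1.33 ± 0.237 in P2H2WT. Ptgs2, the inducible cyclooxygenase whose mRNA TTP destabilizes, was higher in m libraries (2.11 ± 0.30, adjusted p = 0.00564 by edgeR). It was at 0.672 to 2.42 CPM in m (median 1.56) and at 0.119 to 0.812 CPM in f (median 0.354), so the ranges overlapped. Of the 9 TTP targets tested there, 9 were estimated higher in m (48.6% of all genes were) and 4 had an unadjusted p under 0.05 (9% of all genes, higher). Other lists were not mostly higher in m, with none of their genes called. Of 23 further immediate-early genes 9 were above and 14 below 0, and of 12 NF-kappaB feedback genes 2 and 10. The MAP kinase phosphatases were divided 3 above and 5 below, and the upstream kinases and SRF cofactors 5 and 20. Partners of TTP in mRNA decay were divided 6 and 1.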

How the data were processed

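The authors deposited raw counts per gene in 2 tables, 1 per line, with 8 libraries each, per the file headers. The submitters' processing notes name HTSeq and mm10. The aligner, annotation release and strand setting are not given in the sources used here. GENCODE M21 names matched 49326 of 49585 identifiers, and the 259 others held 0.00714% of counts. Groups came from library descriptions and titles.

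Computed here: edgeR 4.0.16 with filterByExpr, TMM factors, robust dispersions and the two-sided quasi-likelihood test, with Benjamini-Hochberg adjustment over all genes tested and a threshold of 0.05. Each line was fitted on its 8 libraries; the difference of changes, the line contrast, the suffix and the number on all 16. Standard errors came from the F statistic, and 95% intervals from the t distribution with the fit's degrees of freedom. CPM used TMM factors of all 16 libraries, and correlations used log2 CPM. DESeq2 1.42.0, other scalings, other filters, covariates and leaving out libraries were alternatives. The scripts were tested on simulated counts. Totals of 23450746 to 28601284 limit precision only for low genes.

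The members and lists were chosen with earlier results of these data known. Genes outside the members were named when called (up to 5 per list) or, where a list had no call, as the 2 with the smallest p and a mean of at least 5 CPM; the likeness list holds the 10 highest and 5 lowest r. Nr4a3, Jund and Cxcl1 were chosen after their values were seen. Ahsp, a listed erythroid marker, was not matched. Promoters came from RefSeq (GRCm38.p6).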

Additional observations from a re-analysis of the deposited data

Results flagged for a closer look

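Atf3 was at 5.59 CPM in P2WT library 10, far above the other 3 libraries of its group (3.49 to 3.71 CPM). Nr4a1 was at 17.95 CPM in that same library, where the other 3 had 13.8 to 14.2 CPM. Atf3 was at 7.39 CPM in P2H2WT library 18, where the other 3 had 4.58 to 4.72 CPM. In each case the gap to the nearest library, divided by the range of the group, exceeded Dixon's 95% critical value for 4 samples. Of 40 combinations of a member and a group 3 did so, and chance gives about 1 in 20.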

How the results depend on the processing

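With 4 libraries a group, depth limits only Fosb and other low genes, and the spread between libraries sets the width of the intervals. In both genotype comparisons and in their difference, 0 members were called under every alternative run. The settings that test the suffix or number itself were added after seeing the data. For all genes, DESeq2 called 22 (P2KO against P2WT), 39 (P2H2KO against P2H2WT), 1377 (line), 284 (number) and 421 (suffix), and of the members 1, 2 and 4 in the last 3. The fit of all 16 libraries called 10 genes in P2KO against P2WT, and the number as a covariate gave 19 in P2H2KO against P2H2WT. For the line, at least 10 counts in every library gave 475 genes, wild-type libraries alone 166 and deficient libraries alone 38 (fewer samples). For the number, upper-quartile factors gave 7 and a suffix term 0 (1679 at an unadjusted p under 0.05). For the suffix, no filter gave 58, at least 10 counts 9 and a number term 8. Apart from these the cause of a shift was not tested. Leaving out single libraries gave 6 to 9 genes in P2H2KO against P2H2WT, 463 to 1268 for the line, 2 to 2259 for the number and 17 to 1066 for the suffix, with 0 to 1, 0 to 2 and 0 to 3 members in the last 3. The extremes came without P2H2WT library 13 (6), P2WT library 3 (463), P2KO library 6 (1268) and P2KO library 9 (2259 and 1066). No paired analysis was possible because no library number is shared between groups.

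Some members changed sign, among them Fosb in P2H2KO against P2H2WT, from -0.38 to 0.13 without P2H2WT library 14. With the suffix as a covariate, Nr4a1 was at 0.060 in P2KO against P2WT, Fos at 0.0025, Jun at 0.23 and Ier2 at -0.020 in P2H2KO against P2H2WT, and Fosb at -0.35 and Jun at -0.48 for the difference. With the number as a covariate, Nr4a1 was at 0.026 in P2KO and Zfp36 at -0.045 in P2H2KO. For the line, Fos was at 0.014 in wild-type libraries and Dusp1 at -0.12 in deficient ones. With both terms, Dusp1 was at 0.064 for the number, and Atf3 at 0.18 and Nr4a1 at 0.37 for the suffix. Leaving out single libraries gave, in P2KO against P2WT, -0.22 to 0.085 for Dusp1, -0.15 to 0.091 for Nr4a1, -0.13 to 0.21 for Egr1, -0.46 to 0.28 for Jun, -0.26 to 0.064 for Junb, -0.19 to 0.053 for Ier2 and -0.21 to 0.0046 for Zfp36. In P2H2KO against P2H2WT it gave -0.056 to 0.12 for Zfp36, -0.27 to 0.36 for Jun, -0.032 to 0.10 for Ier2, -0.20 to 0.14 for Fos and -0.65 to 0.13 for Fosb, and for the difference -0.56 to 0.30 for Fosb, -0.42 to 0.30 for Jun and -0.22 to 0.021 for Ier2. For the line it gave -0.086 to 0.36 for Jun and -0.081 to 0.066 for Dusp1, for the number -0.038 to 0.0015 for Dusp1, and for the suffix -0.16 to 0.12 for Nr4a1, -0.12 to 0.072 for Ier2 and -0.18 to 0.024 for Atf3.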

Other observations

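Jund, the AP-1 subunit usually described as constitutive, had 0 to 4 counts in every library and 32 in all 16 together. It shares 52.6% of its exon bases with Gm11175 on the opposite strand, which had 0 to 4 counts as well. The part of these shared bases in the low counts of Jund was not tested. Cxcl1, a neutrophil-attracting chemokine and TTP target, had 0 counts in all 16 libraries, which allows at most 0.00725 CPM (3 counts of the 413559071 in all, counting error only). Its relative Cxcl2 had 11 to 159 counts. Among inducible heat-shock genes, Hspa1a (0.192 to 1.58 CPM) and Hspa1b (0.716 to 4.31 CPM) were low in each library beside Hsph1 (66.3 to 166 CPM). Hspa1a and Hspa1b are near-identical copies, so their counts are uncertain.

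Other genes of the response also differed widely between libraries. Fosl2, a Fos relative, was at 89.3 CPM in P2KO library 9 and at 258 CPM in P2KO library 6, the libraries that were lowest of all for Fos and Junb and for Fosb, respectively. Ppp1r15a, the phosphatase subunit induced by stress, was at 239 to 546 CPM, and Ccl3, a chemokine, was at 1.15 to 4.42 CPM with its highest value in P2H2WT library 14.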
